A study of Mus musculus with 70 samples.

Results

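The cerebral cortex of 12-week-old mice was examined by RNA sequencing in 16 samples, 8 labelled Cic-L-KO and 8 labelled WT, of the 70 samples of a study that also holds lung, cerebellum and a second knockout. The samples were chosen by their labels alone, and the comparison covered the genes of the count table with enough counts to test, without chromosome 1 and parts of chromosomes 17, 18 and 19, which were not analysed here. Cic-L-KO mice lack the long isoform of Capicua. WT mice were littermate controls pooled from the Cic-L-KO line and the Cic-S-KO line, which lacks the short isoform, and the labels do not give the line of each WT sample. Further groups enter some tests below: 7 Cic-S-KO cortex samples, 8 Cic-L-KO and 8 WT cerebellum samples and 7 Cic-S-KO cerebellum samples, all at 12 weeks and all with the same batch label. No treatment, driver or further allele is named. The labels number the replicates without saying that each came from a separate mouse, so that p-values measure the spread between these samples.

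Capicua is a DNA-binding repressor of the HMG-box family. It occupies short TGAATG-type octamers near its target genes together with ataxin-1 or ataxin-1-like and recruits histone deacetylase complexes. Signalling through RAS and ERK kinases relieves this repression, and genes of the Etv family and feedback inhibitors such as the Sprouty, Spred and Dusp families are known targets. In the forebrain Capicua is known for its part in the maturation of neurons and glia, and in the cerebellum for its complex with mutant ataxin-1 in spinocerebellar ataxia.

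Cic itself (ENSMUSG00000005442, chromosome 7, 25267704 to 25294159, plus strand, GRCm38) was counted per gene over both isoforms, so its level could not check the loss of the long isoform and the genotype is that of the label. Cic stood between 150.3 and 173 CPM in WT (median 161) and between 269 and 318 CPM in Cic-L-KO (median 304), given as CPM, the count scaled to library size with TMM normalization. All 8 Cic-L-KO samples lay above all 8 WT samples (log2 fold change 0.88, SE 0.037, adjusted p = 9.49e-18, edgeR).

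Library totals ran from 21724461 to 27793760 counts in WT and from 20730808 to 31011694 counts in Cic-L-KO. At an equal depth of 20730808 counts, between 22811 and 23778 genes had a count in WT, against 24012 to 25311 in Cic-L-KO, with no overlap between the groups (two-sided exact permutation test, p = 0.000155, the smallest this design allows, adjusted p = 0.000775 over 5 measures). The share of mitochondrial counts was 5.52 ± 0.338% (SD, n = 8) in WT and 5.97 ± 0.326% (n = 8) in Cic-L-KO (exact permutation test, adjusted p = 0.0498). RNA of the choroid plexus, the secretory epithelium of the brain ventricles, varied widely within both groups. The summed level of 9 of its markers ran from 22.2 to 608 CPM in WT and from 23.7 to 1417 CPM in Cic-L-KO (exact permutation test, adjusted p = 0.151). It exceeded 100 CPM in 7 libraries, WT replicates 2 and 6 and Cic-L-KO replicates 1, 2, 3, 5 and 6. Counts given below "without the 7 libraries" leave these out, which keeps 6 WT and 3 Cic-L-KO samples, a fit chosen after the data were seen. RNA of Y-linked genes was present in replicates 1 to 4 of both genotypes and near 0 in replicates 5 to 8, and fits of either set alone were likewise added later.

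**Figure D1:**
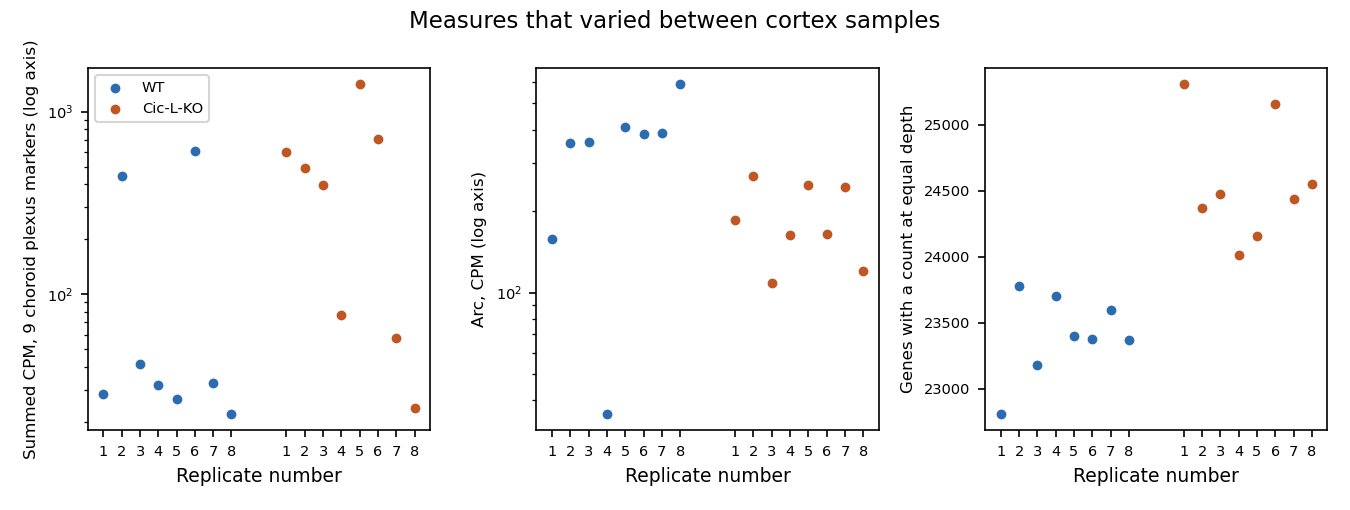
Each point is 1 cortex sample, by replicate number, WT in blue and Cic-L-KO in orange: the summed CPM of 9 choroid plexus markers and the CPM of Arc on log axes, and the number of genes with a count at equal depth on a linear axis. The choroid plexus sum passes 100 CPM in 2 WT and 5 Cic-L-KO samples, WT replicate 4 has the lowest Arc, and the gene numbers of the groups do not overlap.

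A large part of the cortical transcriptome differed between the genotypes, mostly by small amounts. Of 16974 tested genes, 7338 passed an adjusted p of 0.05 (43.2% of those tested; edgeR quasi-likelihood test, Benjamini-Hochberg adjustment), 3624 higher in Cic-L-KO (21.4%) and 3714 lower (21.9%). Called genes had a median change of 0.29 in absolute log2 units, and the median over all tested genes was 0.011. A fold change of at least 2 was reached by 484 called genes, 365 of them higher and 119 lower. The 8 Cic-L-KO samples lay wholly above or wholly below the 8 WT samples at 2248 genes (13.2% of those tested), 1018 above and 1230 below. Without the 7 libraries, 3405 of 17535 tested genes passed, 1689 higher and 1716 lower, and 21 of the 7338 genes had the other sign. Samples with Y-linked RNA alone gave 5095 of 16407, and those without it 4396 of 16377. Calls were thus fewer over all genes in these settings. Whether a list below lost more calls than genes in general was not tested.

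The direction of change went with the level of expression. Among 5524 tested genes with a mean log2 CPM under 2, 1009 were higher in Cic-L-KO and 407 lower. Among 4573 genes between 4 and 6 the numbers were 1092 and 1264, and among 720 genes above 8 they were 119 and 348, so that 25.5% of the called genes were higher in this class against 71.3% in the lowest. The share called rose with the level as well: 25.6% under 2, 51.5% between 4 and 6, 60.8% between 6 and 8 and 64.9% above 8. The lists below are set beside all tested genes, and a share particular to a list at its own level was not tested. The balance of higher and lower genes also differed between gene types. Protein-coding genes gave 3019 higher and 3451 lower of 13956 tested, antisense RNAs 157 and 39 of 613 (median log2 fold change 0.23), and TEC entries, transcribed loci awaiting experimental support, 164 and 22 of 510 (median 0.42). TEC loci held 0.0888% to 0.118% of the counts of a WT sample and 0.117% to 0.146% of a Cic-L-KO sample. Whether the larger number of detected genes in Cic-L-KO takes part in these shares was not tested.

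**Figure D2:**
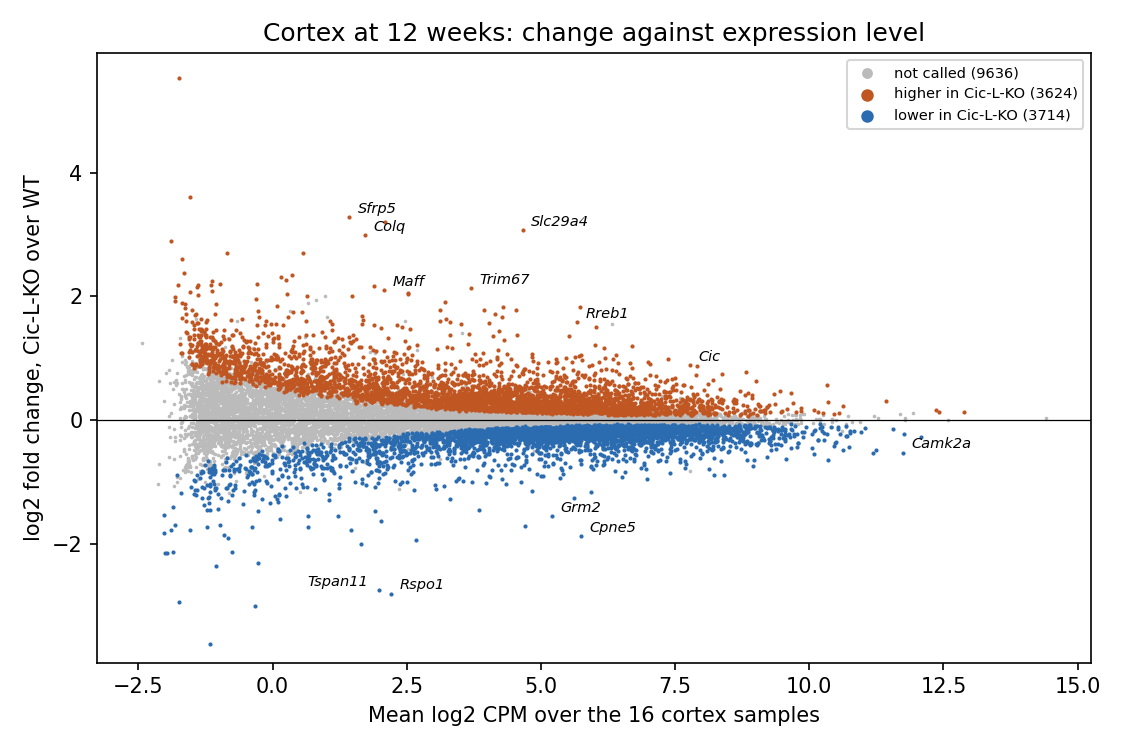
Each point is 1 of 16974 tested genes, placed by its mean log2 CPM over the 16 cortex samples (horizontal axis) and its log2 fold change of Cic-L-KO over WT (vertical axis), orange for the 3624 higher and blue for the 3714 lower genes. Called genes of low expression lie mostly above zero, and called genes of high expression mostly below it.

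Among 12 genes of the Capicua complex and its corepressors, 5 were higher, 2 were lower and 5 were not called (median log2 fold change 0.14). This is 58.3% called, against 43.2% of all tested genes and 60.8% of those with a mean log2 CPM between 6 and 8. Atxn1, which encodes the partner protein ataxin-1, stood between 87.1 and 105 CPM in WT (median 96.5) and between 158 and 195 CPM in Cic-L-KO (median 179). No Cic-L-KO sample overlapped a WT sample (log2 fold change 0.90, SE 0.044, adjusted p = 2.68e-16, edgeR). Atxn1l, the gene of the related partner ataxin-1-like, stood between 56.4 and 62.9 CPM in WT (median 58.3) and between 57 and 62.7 CPM in Cic-L-KO (median 59.6), and its groups overlapped almost fully (log2 fold change 0.020, SE 0.035, adjusted p = 0.665, edgeR). Here and below, a single value in parentheses after a gene is its log2 fold change of Cic-L-KO over WT, and a gene said to rise or fall passed the adjusted p of 0.05. Of the corepressor genes, Hdac3 (0.30), Sin3b (0.18) and Hdac1 (0.16) rose, and Ncor1 (-0.26) and Sin3a (-0.21) fell, each by less than 0.5 on the log2 scale. Samples without Y-linked RNA alone gave 3 higher genes in this list.

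Genes beside Cic were listed because both knockouts were made at this locus. Of 15 tested genes within 200 kb, 5 were higher and 2 lower (46.7% called), and of 312 within 10 Mb, 77 were higher and 62 lower (44.6% called). Both shares are near the 43.2% called among the genes outside 10 Mb. Pafah1b3, which encodes a catalytic subunit of a platelet-activating factor acetylhydrolase, ends 889 bases from the end of Cic on the opposite strand (25295049 to 25297986). It stood between 7.64 and 9.69 CPM in WT (median 8.14) and between 25.9 and 31.7 CPM in Cic-L-KO (median 28.2), without overlap (log2 fold change 1.77, SE 0.073, adjusted p = 9.49e-18, edgeR). Lipe, the hormone-sensitive lipase (0.57), Tmem145 (0.41) and the antisense RNA 4732471J01Rik (0.24) also rose, while Gsk3a, a glycogen synthase kinase (-0.13), and Erf, an ERK-regulated ETS repressor (-0.18), fell. The sources used here do not say whether counting used strand, so reads of overlapping or adjoining genes on opposite strands may have been assigned to either. This touches 4732471J01Rik, which overlaps Lipe. 4732471J01Rik was not called without any 1 of Cic-L-KO replicates 1, 2, 3, 7 and 8 or WT replicates 1, 2, 4 and 5 (adjusted p = 0.0513 to 0.0851, edgeR).

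Of 22 tested genes known as Capicua targets or ERK feedback genes, 10 were higher, 3 were lower and 9 were not called, with a median log2 fold change of 0.22. The share called was 59.1%, against 43.2% of all tested genes, of which 21.4% were higher and 21.9% lower. It was 51.5% over all genes with a mean log2 CPM between 4 and 6, and 60.8% between 6 and 8. A share particular to the list was not tested. The list was drawn up with earlier results of these samples known. Maff, a small MAF transcription factor, stood between 1.14 and 3.07 CPM in WT (median 1.98) and between 6.63 and 10.6 CPM in Cic-L-KO (median 8.91), and no samples overlapped (log2 fold change 2.1, SE 0.18, adjusted p = 3.49e-10, edgeR). The ETS factor gene Etv4 stood between 7.19 and 13.2 CPM in WT (median 10.4) and between 18.7 and 23.8 CPM in Cic-L-KO (median 22.4), again without overlap (log2 fold change 1.09, SE 0.082, adjusted p = 5.79e-12, edgeR). Spred3, which encodes an inhibitor of RAS signalling, stood between 47.5 and 69.5 CPM in WT (median 60.8) and between 82.5 and 95.8 CPM in Cic-L-KO (median 89.8) (log2 fold change 0.57, SE 0.065, adjusted p = 9.10e-08, edgeR). All 8 Cic-L-KO samples exceeded all WT samples at these 3 genes.

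The ETS genes did not move as 1 group. Etv5 stood between 106 and 173 CPM in WT (median 155) and between 192 and 237 CPM in Cic-L-KO (median 204) (log2 fold change 0.48, SE 0.11, adjusted p = 0.00143, edgeR) and rose like Etv4. Etv1, which is also a marker of layer 5 neurons, stood between 103 and 134 CPM in WT (median 118) and between 82.9 and 100.2 CPM in Cic-L-KO (median 89.7) and fell, with every Cic-L-KO sample below every WT sample (log2 fold change -0.41, SE 0.056, adjusted p = 1.09e-06, edgeR). Of the other members, the adaptor genes Shc3 (0.71) and Shc4 (0.38), the granin-like precursor Vgf (0.40), the cell-cycle gene Ccnd1 (0.26) and the feedback genes Spry4 (0.55) and Spred2 (0.31) rose. Spred1 (-0.19) and the phosphatase gene Dusp5 (-0.54) fell. The 3 lower genes dropped to 1 when any 1 of Cic-L-KO replicates 1, 6 and 8 or WT replicates 5, 6, 7 and 8 was left out, and in the 7-library setting. Dusp5 was not called without any 1 of Cic-L-KO replicates 1, 3, 4, 6 and 8 or WT replicates 2, 5, 6, 7 and 8 (adjusted p = 0.0537 to 0.0929, edgeR). Spred1 was not called without any 1 of Cic-L-KO replicates 1, 2, 5, 6 and 8 or WT replicates 1, 4, 5, 6, 7 and 8 (adjusted p = 0.0522 to 0.0979, edgeR). Spred2 was not called without any 1 of Cic-L-KO replicates 1, 5, 6 and 7 or WT replicates 1, 2, 3 and 4 (adjusted p = 0.0512 to 0.0608, edgeR). Etv5, Spry4, Spred1, Spred2 and Dusp5 are named as members of the list after their values were seen.

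Promoters were searched for the octamers TGAATGAA and TGAATGGA on both strands, from 250 bases before to 50 bases after the RefSeq start site. An octamer was found in 811 of 32851 promoters of the RefSeq table (2.47%). Among tested genes with a promoter in the table, 66 of 2555 higher genes had one (2.58%), 32 of 2780 lower genes (1.15%) and 138 of 6458 genes that were not called (2.14%). Of the 15 protein-coding genes with the largest rises, 9 had a promoter in the table and 2 of these held an octamer, Maff and Plce1. None of the 13 tabled promoters of the 15 genes with the largest falls held one. These counts describe letters in a window and say nothing of binding. The stretches below run from 250 bases before the start site to 10 after it (RefSeq, GRCm38.p6, written in the direction of the gene), with the octamer in capitals. The 4 genes shown had the largest rises among the named genes whose promoter held an octamer, and all 4 rose without overlap. Kcns3, a potassium channel subunit gene (0.62), carries TGAATGGA on the opposite strand. Kcnip1 (0.56), the next by size, also rose without overlap and is not printed. Its window holds TGAATGAA on the opposite strand, just after the start site.
Maff, chr15:79347270-79347529, plus strand: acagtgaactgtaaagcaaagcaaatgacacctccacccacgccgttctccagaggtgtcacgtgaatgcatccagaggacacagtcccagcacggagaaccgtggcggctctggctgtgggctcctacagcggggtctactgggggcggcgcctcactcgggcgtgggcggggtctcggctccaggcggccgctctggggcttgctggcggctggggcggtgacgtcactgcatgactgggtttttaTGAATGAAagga
Plce1, chr19:38523947-38524206, plus strand: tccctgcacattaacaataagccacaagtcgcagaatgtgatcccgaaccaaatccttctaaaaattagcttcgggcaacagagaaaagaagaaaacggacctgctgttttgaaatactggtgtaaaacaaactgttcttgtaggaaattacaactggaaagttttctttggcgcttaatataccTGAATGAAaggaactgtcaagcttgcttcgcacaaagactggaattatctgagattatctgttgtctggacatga
Spred3, chr7:29168638-29168897, minus strand: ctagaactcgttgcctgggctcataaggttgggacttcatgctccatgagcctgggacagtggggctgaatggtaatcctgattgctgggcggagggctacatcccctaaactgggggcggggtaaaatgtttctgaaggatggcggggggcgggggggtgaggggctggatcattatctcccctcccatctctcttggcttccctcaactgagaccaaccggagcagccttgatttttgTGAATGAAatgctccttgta
Kcns3, chr12:11150833-11151092, minus strand: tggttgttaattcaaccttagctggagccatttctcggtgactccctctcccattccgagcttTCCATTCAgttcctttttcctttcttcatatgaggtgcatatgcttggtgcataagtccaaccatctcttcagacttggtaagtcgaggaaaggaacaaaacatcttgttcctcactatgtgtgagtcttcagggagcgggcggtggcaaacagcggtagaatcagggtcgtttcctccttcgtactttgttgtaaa
In Maff the octamer begins 2 bases before the start site and runs past it. In Spred3 it begins 10 bases before the start site, in Kcns3 187 bases and in Plce1 65 bases. The printed Plce1 octamer is the first of 2 matches in its window.

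The genes with the largest rises belonged to several functions. Among protein-coding genes whose mean log2 CPM was 1 or more, Sfrp5, a secreted inhibitor of WNT signalling, came first. It stood between 0.429 and 1.82 CPM in WT (median 0.705) and between 7.67 and 9.62 CPM in Cic-L-KO (median 8.22), with no overlap (log2 fold change 3.28, SE 0.36, adjusted p = 2.03e-07, edgeR). Slc29a4, which encodes the plasma membrane monoamine transporter PMAT, stood between 6.77 and 12.8 CPM in WT (median 8.09) and between 65 and 87 CPM in Cic-L-KO (median 74.8) (log2 fold change 3.07, SE 0.17, adjusted p = 6.86e-12, edgeR). The lowest Cic-L-KO sample was thus well above the highest WT sample, and the fitted ratio was 8.39-fold. Colq, the collagen tail that anchors acetylcholinesterase, stood between 0.634 and 1.89 CPM in WT (median 1.06) and between 7.75 and 13.1 CPM in Cic-L-KO (median 9.03) (log2 fold change 2.98, SE 0.19, adjusted p = 2.33e-13, edgeR). Gipr, the receptor of the incretin hormone GIP, stood between 1.21 and 2.73 CPM in WT (median 1.58) and between 7.03 and 8.53 CPM in Cic-L-KO (median 7.69) (log2 fold change 2.17, SE 0.14, adjusted p = 1.23e-13, edgeR). Trim67, a brain-enriched ubiquitin ligase gene, stood between 5.3 and 7.69 CPM in WT (median 6.08) and between 19.9 and 31.7 CPM in Cic-L-KO (median 28) (log2 fold change 2.13, SE 0.089, adjusted p = 9.49e-18, edgeR). Each of these 4 genes also separated all samples of the genotypes.

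Plce1, which encodes phospholipase C epsilon, a RAS effector, stood between 6.34 and 13.9 CPM in WT (median 11.3) and between 31.8 and 43.6 CPM in Cic-L-KO (median 38.1) (log2 fold change 1.82, SE 0.14, adjusted p = 1.12e-09, edgeR). Its highest WT sample stayed below its lowest Cic-L-KO sample. The remaining genes of the 15 largest rises were Ankrd55 (2.04), the choroid plexus gene Sostdc1 (2.0), the glucagon-like peptide 2 receptor gene Glp2r (1.9), the synaptic organiser Cbln4 (1.83), the matrix protein gene Abi3bp (1.79), the hyaluronan receptor gene Layn (1.78), Pafah1b3 (1.77), the lipid transporter gene Abca8a (1.72) and Maff. Sostdc1 was the exception to the separation of the groups: it ran from 0.238 to 4.8 CPM in WT and from 1.51 to 19.1 CPM in Cic-L-KO. Glp2r lies opposite the much more strongly counted Gas7, and Ankrd55 opposite an antisense RNA, so their counts are less certain if strand was not used.

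**Figure D3:**
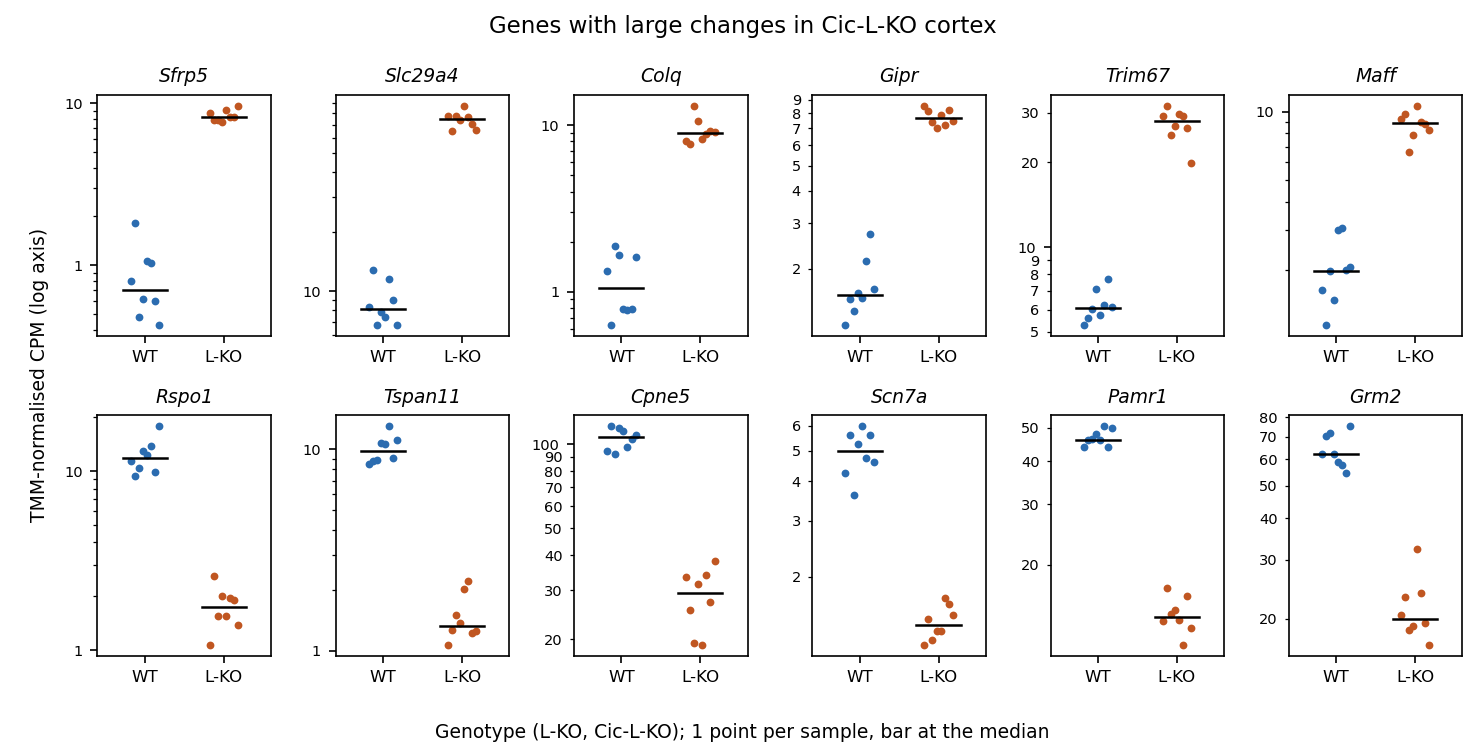
TMM-normalised CPM (log axes) of 12 genes in each cortex sample, WT in blue and Cic-L-KO in orange (L-KO), with a bar at the group median. In every panel the 8 samples of a genotype lie apart from the 8 of the other, above WT in the upper row and below it in the lower row.

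Ranked by p rather than by size, the first 10 genes were Pafah1b3, Cic, Trim67, Abca8a and Pamr1 with Pacsin2, which encodes a membrane-bending endocytic protein (log2 fold change 0.92, SE 0.032, adjusted p = 1.98e-19, edgeR), Serpina3n, the cold-shock domain gene Csdc2 (0.98), the long intergenic RNA 5930438M14Rik (3.2) and the cytoskeletal gene Epb41 (0.98). Pacsin2 stood between 70.5 and 78 CPM in WT (median 73.2) and between 132 and 152 CPM in Cic-L-KO (median 139.5). Serpina3n, a serine protease inhibitor that marks reactive astrocytes and is also made by neurons and oligodendrocytes, stood between 9.15 and 14.1 CPM in WT (median 10.3) and between 32.3 and 38 CPM in Cic-L-KO (median 34.7) (log2 fold change 1.67, SE 0.076, adjusted p = 6.17e-17, edgeR). Both genes separated the genotypes with wide gaps relative to the spread within each group.

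The largest falls were led by Rspo1, a secreted enhancer of WNT signalling that marks layer 4 neurons. It stood between 9.34 and 17.8 CPM in WT (median 11.8) and between 1.07 and 2.6 CPM in Cic-L-KO (median 1.74) (log2 fold change -2.81, SE 0.15, adjusted p = 2.04e-14, edgeR). Tspan11, a tetraspanin gene, stood between 8.48 and 13 CPM in WT (median 9.84) and between 1.07 and 2.22 CPM in Cic-L-KO (median 1.33) (log2 fold change -2.75, SE 0.15, adjusted p = 4.49e-15, edgeR). Each of the 2 overlaps a scarce antisense RNA that fell with it. Cpne5, which encodes the calcium-dependent membrane protein copine 5, stood between 92.1 and 116 CPM in WT (median 106) and between 19.1 and 38.1 CPM in Cic-L-KO (median 29.4) (log2 fold change -1.87, SE 0.12, adjusted p = 5.45e-11, edgeR). The highest Cic-L-KO sample lay below the lowest WT sample at all 3 genes.

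Scn7a, an atypical sodium channel gene, stood between 3.61 and 5.99 CPM in WT (median 5.0) and between 1.21 and 1.71 CPM in Cic-L-KO (median 1.41) (log2 fold change -1.79, SE 0.11, adjusted p = 1.23e-13, edgeR). Pamr1, a peptidase domain gene, stood between 43.8 and 50.5 CPM in WT (median 46.2) and between 11.7 and 17.1 CPM in Cic-L-KO (median 14.1) (log2 fold change -1.71, SE 0.074, adjusted p = 1.13e-16, edgeR). Grm2, which encodes the presynaptic metabotropic glutamate receptor mGlu2, stood between 54.4 and 75.3 CPM in WT (median 62.3) and between 16.7 and 32.3 CPM in Cic-L-KO (median 19.99) (log2 fold change -1.56, SE 0.11, adjusted p = 7.32e-11, edgeR). None of these genes overlapped between the groups. Further genes among the 15 largest falls were Alox12b (-2.0), the troponin gene Tnnc1 (-1.64), Gm765 (-1.48), Dkkl1 (-1.46), the polo-like kinase gene Plk5 (-1.27), Scube1 (-1.27), Tmem232 (-1.2), the Polycomb-associated gene Epop (-1.16) and the IGF-binding protein gene Igfbp6 (-1.15). Groups overlapped at Gm765 alone. Tnnc1 lies opposite the strongly counted Nisch, which rose.

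Of 9 markers of cortical excitatory neurons, 0 were higher and 6 were lower, with a median log2 fold change of -0.38. Over all tested genes 21.4% were higher and 21.9% lower, but strongly expressed genes leaned lower in general: among 2908 genes with a mean log2 CPM between 6 and 8, 604 were higher and 1163 lower, and above 8 the numbers were 119 and 348 of 720. Slc17a7 and Camk2a lie in the highest class, and a lean particular to the list was not tested. Slc17a7, which encodes the vesicular glutamate transporter of most cortical excitatory neurons, stood between 1563 and 1715 CPM in WT (median 1607) and between 1148 and 1349.9 CPM in Cic-L-KO (median 1232) (log2 fold change -0.38, SE 0.035, adjusted p = 4.45e-10, edgeR). Camk2a, the alpha subunit of calcium/calmodulin-dependent kinase II, stood between 3633 and 4469 CPM in WT (median 4128) and between 2646 and 3102 CPM in Cic-L-KO (median 2833) (log2 fold change -0.53, SE 0.050, adjusted p = 2.99e-09, edgeR). Both separated the genotypes. The transcription factor genes Tbr1 (-0.45), Neurod2 (-0.38) and Emx1 (-0.39) and the Nogo receptor gene Rtn4r (-0.65) also fell, and Nrgn was not called (-0.11, adjusted p = 0.197, edgeR). In bulk tissue, fewer cells of a type and less of an RNA per cell cannot be told apart.

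Markers of the cortical layers did not move as blocks. Layer 4 markers gave 1 higher and 5 lower of 7 (85.7% called). Of all tested genes 43.2% were called, 21.4% higher and 21.9% lower. The nuclear receptor gene Rorb, a defining layer 4 marker, stood between 41.5 and 60.1 CPM in WT (median 51.4) and between 29.6 and 43.8 CPM in Cic-L-KO (median 37.2), with some overlap (log2 fold change -0.47, SE 0.084, adjusted p = 6.55e-05, edgeR). The potassium channel gene Kcnh5 stood between 24.9 and 38.4 CPM in WT (median 26.6) and between 10.2 and 17.9 CPM in Cic-L-KO (median 14.5), without overlap (log2 fold change -1.04, SE 0.10, adjusted p = 1.19e-08, edgeR), while Whrn, a scaffold protein gene on the same list, rose (0.56). Upper layer markers gave 3 higher and 4 lower of 11 (63.6% called). Their largest change was the rise of Mdga1, a regulator of synaptic adhesion, which stood between 22.1 and 39 CPM in WT (median 27.4) and between 64.8 and 85.3 CPM in Cic-L-KO (median 72.9) and did not overlap (log2 fold change 1.36, SE 0.11, adjusted p = 9.62e-10, edgeR). Calb1 (-0.67), Stard8 (-0.61), Pou3f2 (-0.32) and Cux1 (-0.20) fell, and Cux2 (0.18) and Plcxd2 (0.22) rose.

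The deep layers were also divided. Layer 5 markers gave 4 higher and 3 lower of 15 (46.7% called, near the 43.2% of all tested genes). Deptor (-0.50), Parm1 (-0.46) and Etv1 fell, and Bcl6 rose (0.32). Without Cic-L-KO replicate 5 the higher layer 5 genes numbered 2. Layer 6 markers gave 3 higher and 6 lower of 15 (60% called). Rprm (-0.88), Foxp2 (-0.52) and Tbr1 fell, and the neurotensin receptor gene Ntsr1 (0.67) and the synaptotagmin gene Syt6 (0.60), both markers of layer 6 projection neurons, rose. In the 7-library setting 1 upper layer and 1 layer 5 marker were higher.

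Inhibitory neuron markers changed in both directions. Of 28 tested, 9 were higher and 8 lower (60.7% called, against 43.2% of all tested genes), with 3 lower in the 7-library setting. Genes with a mean log2 CPM between 6 and 8 were called at 60.8% in general. Sst, the peptide somatostatin of a large interneuron class, stood between 177 and 195 CPM in WT (median 182) and between 285 and 317 CPM in Cic-L-KO (median 304) (log2 fold change 0.72, SE 0.045, adjusted p = 6.27e-14, edgeR). Npy, the peptide neuropeptide Y, stood between 53.3 and 69.1 CPM in WT (median 60.2) and between 93.1 and 116 CPM in Cic-L-KO (median 105) (log2 fold change 0.81, SE 0.054, adjusted p = 6.14e-13, edgeR). All 8 Cic-L-KO samples lay above the WT range at both. Reelin (Reln, 0.27) and parvalbumin (Pvalb, 0.34) rose as well. Vip, the peptide of another interneuron class, stood between 41.1 and 55.1 CPM in WT (median 50.6) and between 32.5 and 45.8 CPM in Cic-L-KO (median 35.7), with overlap (log2 fold change -0.41, SE 0.080, adjusted p = 0.0002, edgeR). Lamp5 (-0.37), Adarb2 (-0.33), Ndnf (-0.59) and the cannabinoid receptor gene Cnr1 (-0.23) fell, and the homeobox gene Dlx1 (0.29), the channel gene Kcnc1 (0.28) and the nitric oxide synthase gene Nos1 (0.49) rose. For Gad1 and Gad2, which make GABA in all these cells, the log2 fold changes were 0.11 (adjusted p = 0.099, edgeR) and 0.083 (adjusted p = 0.584, edgeR). Gad1 was called without Cic-L-KO replicate 5 (adjusted p = 0.0415, edgeR).

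**Figure D4:**
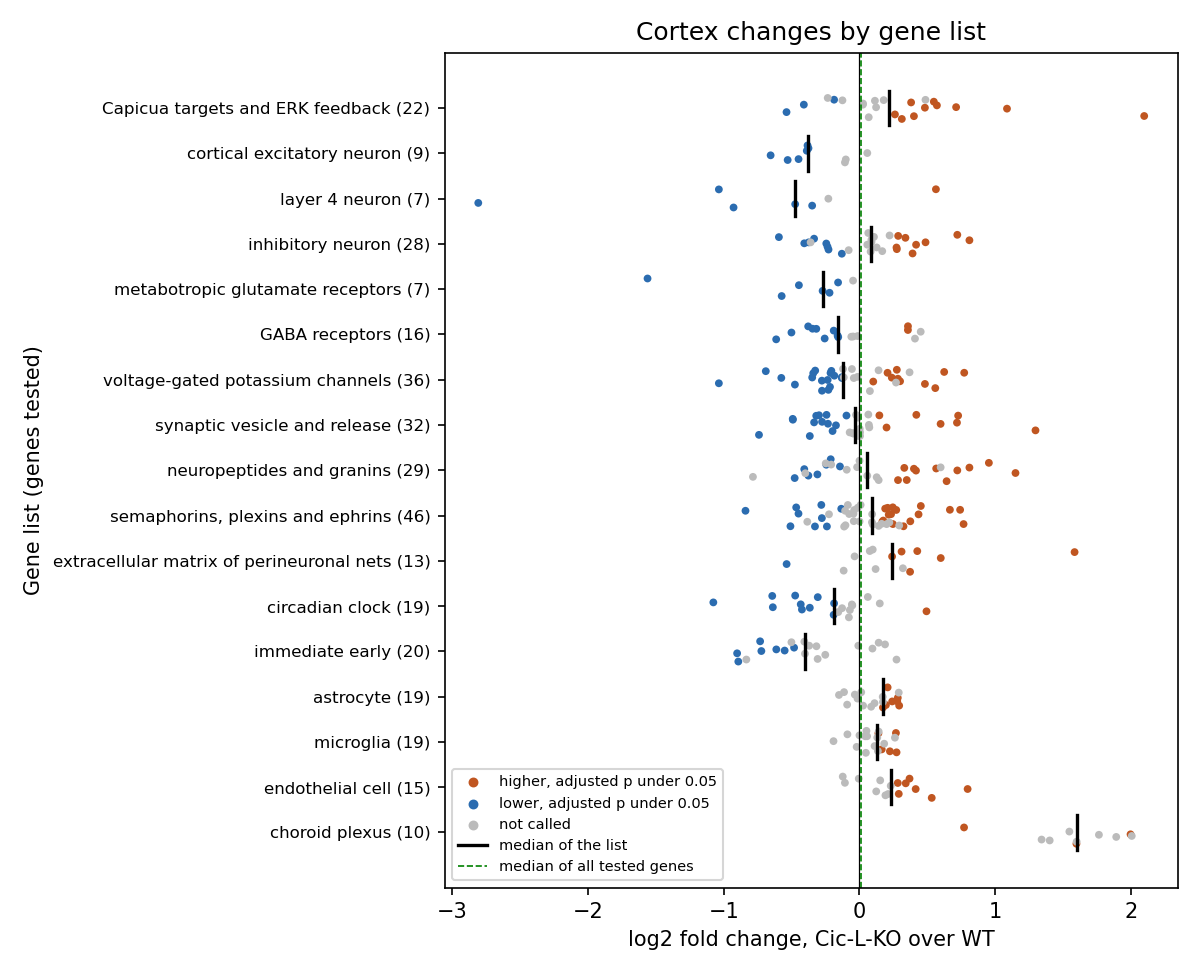
Each point is the log2 fold change (Cic-L-KO over WT) of 1 tested gene of the list named on the left, with the number tested in brackets; orange marks higher, blue lower and grey genes that were not called. A black bar gives the list's median and the dashed line the median of all tested genes, 0.011. Medians lie on both sides of this line. The excitatory, layer 4, metabotropic glutamate receptor and immediate early medians lie furthest to the left and the choroid plexus median furthest to the right.

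Counts for transmitter receptors stand beside 21.4% higher and 21.9% lower over all tested genes, and beside the lean of strongly expressed genes towards lower levels. Of 7 metabotropic glutamate receptor genes, 6 fell and 0 rose (median -0.27). After Grm2 the falls were Grm3 (-0.57), Grm8 (-0.45), Grm5 (-0.27), Grm7 (-0.22) and Grm4 (-0.16). Grm4 was not called without any 1 of Cic-L-KO replicates 1, 2, 3, 4, 7 and 8 or WT replicates 2, 4, 5, 6, 7 and 8 (adjusted p = 0.0585 to 0.127, edgeR). Ionotropic glutamate receptor genes gave 5 higher and 8 lower of 17. The AMPA receptor subunits Gria3 (-0.42) and Gria2 (-0.24) and the NMDA receptor subunits Grin2a (-0.36) and Grin2b (-0.34) fell, and Gria1 (0.22), Grin2d (0.46) and Grik1 (0.35) rose. Without the 7 libraries, 3 were higher and 5 lower.

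GABA receptor genes gave 2 higher and 9 lower of 16 (median -0.16). Gabra4, a subunit of extrasynaptic GABA-A receptors, stood between 115 and 132 CPM in WT (median 125) and between 72.3 and 91.2 CPM in Cic-L-KO (median 80.7), without overlap (log2 fold change -0.61, SE 0.045, adjusted p = 3.79e-12, edgeR). The subunit genes Gabrb2 (-0.35) and Gabra3 (-0.32) also fell. Gabra2 (0.36) and Gabrg1 (0.36) rose. In the 7-library setting 5 GABA receptor genes were lower.

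Channel genes changed in both directions. Of 36 voltage-gated potassium channel genes, 10 were higher and 17 lower (75% called, against 43.2% of all tested genes). Among all genes with a mean log2 CPM between 6 and 8, 60.8% were called, and above 8 64.9%, more of them lower than higher. A share or lean particular to the channels was not tested. After Kcnh5, the falls were largest in Kcnv1 (-0.69) and Kcns2 (-0.58), 2 modulatory subunits, and the rises in Kcns1 (0.77), Kcns3 (0.62) and Kcnip1 (0.56). Sodium and calcium channel genes gave 6 higher and 11 lower of 29 (58.6% called). Cacna2d1, the calcium channel subunit that binds gabapentin, stood between 283 and 334 CPM in WT (median 309) and between 181 and 211 CPM in Cic-L-KO (median 206), without overlap (log2 fold change -0.61, SE 0.040, adjusted p = 2.14e-13, edgeR). The sodium channel gene Scn2a (-0.28) fell, and Cacna1g, a T-type calcium channel gene, rose (0.54). Without the 7 libraries, the potassium channels gave 9 higher and 10 lower genes and the sodium and calcium channels 2 and 6.

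Genes of synaptic vesicles and release gave 7 higher and 13 lower of 32 (62.5% called, against 43.2% of all tested genes). Strongly expressed genes were called more often in general, 60.8% at a mean log2 CPM between 6 and 8 and 64.9% above 8. Called genes of both classes leaned lower, and a share or lean particular to the list was not tested. Snap25, a core protein of vesicle fusion, stood between 2658 and 3140.4 CPM in WT (median 2839.5) and between 1845 and 2298 CPM in Cic-L-KO (median 1974) (log2 fold change -0.49, SE 0.043, adjusted p = 1.83e-10, edgeR). Sv2b, a vesicle glycoprotein gene, stood between 598 and 682 CPM in WT (median 639.9) and between 341 and 424 CPM in Cic-L-KO (median 389) (log2 fold change -0.74, SE 0.046, adjusted p = 5.73e-14, edgeR). The largest rise was that of Syn3, a synapsin gene, which stood between 10.6 and 14.1 CPM in WT (median 12.6) and between 25.9 and 35.1 CPM in Cic-L-KO (median 31.5) (log2 fold change 1.3, SE 0.065, adjusted p = 4.83e-16, edgeR). None of the 3 overlapped between genotypes. Syt1 (-0.49), Stx1a (-0.30) and Syn1 (-0.20) fell with Snap25.

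Neuropeptide and granin genes gave 11 higher and 7 lower of 29 (62.1% called, against 43.2% of all tested genes). With Sst and Npy, the peptide genes Grp (0.95) and Adcyap1 (0.64) and the granin genes Chga (0.35), Scg3 (0.33) and Pcsk1n (0.42) rose, and the processing enzyme gene Pcsk2 fell (-0.48). Crhbp, which encodes a binding protein of corticotropin-releasing hormone, stood between 24.9 and 29.5 CPM in WT (median 27.5) and between 49.6 and 58.5 CPM in Cic-L-KO (median 56.1) (log2 fold change 0.99, SE 0.047, adjusted p = 1.40e-16, edgeR). Every Cic-L-KO sample lay above the WT range. In the 7-library setting 4 peptide and granin genes were lower.

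Among the ranked protein-coding genes, WNT modulators held both the largest rise, Sfrp5, and the largest fall, Rspo1. The list of WNT ligands, receptors and modulators gave 11 higher and 11 lower of 43 (51.2% called, against 43.2% of all tested genes). The higher genes numbered 7 when Cic-L-KO replicate 5 was left out. In the 7-library setting 4 were higher and 7 lower. Frzb (-1.02), Dkkl1 (-1.46) and the ligand gene Wnt9a (-0.81) fell, and Sfrp2 (1.16) and the ligand gene Wnt7b (0.29) rose. Semaphorins, plexins and ephrins, which guide axons and synapses, gave 16 higher and 9 lower of 46 (54.3% called). Plxnd1, a semaphorin receptor gene, stood between 115 and 142 CPM in WT (median 129) and between 56.8 and 82.7 CPM in Cic-L-KO (median 70.7), without overlap (log2 fold change -0.84, SE 0.070, adjusted p = 7.35e-10, edgeR). Sema5a (0.67), Sema5b (0.74), Nrp1 (0.77) and Plxna4 (0.45) rose. Without the 7 libraries, 8 genes of this family were higher and 4 lower.

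Genes of the extracellular matrix around inhibitory neurons gave 6 higher and 1 lower of 13 (53.8% called, against 43.2% of all tested genes). Acan, the aggrecan core protein of perineuronal nets, stood between 4.73 and 6.46 CPM in WT (median 5.62) and between 15.2 and 18.5 CPM in Cic-L-KO (median 17) (log2 fold change 1.59, SE 0.082, adjusted p = 9.63e-16, edgeR), a fitted increase of 3.0-fold with no overlap. The hyaluronan synthase gene Has3 (0.60), brevican (Bcan, 0.31) and tenascin C (Tnc, 0.43) also rose, and Hapln1, which links aggrecan to hyaluronan, fell (-0.54). In the 7-library setting 3 of these genes were higher.

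Of 21 cholinergic genes, 4 were higher and 7 lower (52.4% called, against 43.2% of all tested genes). Chrm2, the muscarinic M2 receptor gene, stood between 16.8 and 27.3 CPM in WT (median 22) and between 36.8 and 47.5 CPM in Cic-L-KO (median 42.3) (log2 fold change 0.93, SE 0.078, adjusted p = 1.49e-10, edgeR), without overlap. With Colq, its binding partner acetylcholinesterase (Ache, 0.45) rose. The muscarinic receptor genes Chrm1 (-0.47) and Chrm3 (-0.64) and the nicotinic subunit gene Chrna4 (-0.68) fell. Of 28 genes for monoamine receptors and transport, 3 were higher and 9 lower (42.9% called). Htr2a, the serotonin 2A receptor gene, stood between 36.5 and 51.8 CPM in WT (median 43.8) and between 17.3 and 28.8 CPM in Cic-L-KO (median 23.4), without overlap (log2 fold change -0.91, SE 0.077, adjusted p = 3.13e-10, edgeR). Htr1a (-0.90), Htr5a (-0.42) and the beta-1 adrenergic receptor gene Adrb1 (-0.34) fell with it, while Slc29a4 rose. Without the 7 libraries, 5 genes of the monoamine list were lower.

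Markers of astrocytes (36.8% called), microglia (26.3%) and pericytes (37.5%) were called less often than the 43.2% of all tested genes, and endothelial markers (46.7%) at about that share. Astrocyte markers gave 7 higher and 0 lower of 19, led by Slc4a4 (0.29) and Acsbg1 (0.28), with Gfap at 0.29 (adjusted p = 0.0604, edgeR). Gfap was called without any 1 of Cic-L-KO replicates 3 and 4 or WT replicate 1 (adjusted p = 0.00711 to 0.0499, edgeR). Microglia markers gave 5 higher and 0 lower of 19, led by the complement gene C1qa (0.27). Endothelial markers gave 7 higher and 0 lower of 15, and pericyte and smooth muscle markers 3 higher and 0 lower of 8. Kdr, the receptor of vascular endothelial growth factor, stood between 9.29 and 21 CPM in WT (median 14.1) and between 17.4 and 28.5 CPM in Cic-L-KO (median 24.6) with overlap (log2 fold change 0.80, SE 0.13, adjusted p = 2.50e-05, edgeR). These 4 counts became 3 higher and 2 lower, 1 higher, 1 higher and 0 without the 7 libraries, and samples with Y-linked RNA alone gave 2 higher endothelial and 0 higher pericyte genes. The part of choroid plexus RNA or of the smaller number of samples in these counts was not tested.

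Oligodendrocyte markers gave 3 higher and 3 lower of 25 (24% called) and precursor markers 2 higher and 3 lower of 14 (35.7% called). Both shares were below the 43.2% of all tested genes. The myelin genes Opalin (-0.48), Mal (-0.30) and Cldn11 (-0.26) fell. The higher oligodendrocyte genes numbered 5 without WT replicate 8, and the lower precursor genes numbered 1 without any of Cic-L-KO replicates 4 and 7 or WT replicates 1 and 4. Meningeal fibroblast markers gave 0 higher and 2 lower of 10 (20% called). Dcn, the matrix protein decorin, stood between 8.96 and 26 CPM in WT (median 16.8) and between 6.37 and 15.5 CPM in Cic-L-KO (median 8.84) (log2 fold change -0.76, SE 0.19, adjusted p = 0.00253, edgeR). Its groups overlapped. Lum was the second gene (-0.51, adjusted p = 0.0291, edgeR), and the count was 1 without any of Cic-L-KO replicates 1 and 4 or WT replicates 1, 2 and 8, where Lum was not called (adjusted p = 0.0607 to 0.0795, edgeR).

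Choroid plexus markers gave 3 higher and 0 lower of 10 (30% called, against 43.2% of all tested genes). Their median log2 fold change was 1.6, with wide spread. Ttr, transthyretin, stood between 13.6 and 533 CPM in WT (median 18.3) and between 5.96 and 1139 CPM in Cic-L-KO (median 356) (log2 fold change 1.55, SE 1.17, adjusted p = 0.301, edgeR), and its groups overlapped. Leaving out 1 library moved the called markers between 1 and 7, highest without WT replicate 6 (7 genes) and WT replicate 2 (5 genes). The 3 called genes were Sostdc1, Clic6 (1.6) and Enpp2 (0.77). None of the 3 was called without the 7 libraries, or in samples with or without Y-linked RNA alone, settings with fewer samples. Enpp2 is also made by oligodendrocytes. Clic6 was not called without any 1 of Cic-L-KO replicates 1, 5 and 6 or WT replicates 1, 3, 4, 5, 7 and 8 (adjusted p = 0.0603 to 0.111, edgeR). Enpp2 was not called without any 1 of Cic-L-KO replicates 1, 2, 5 and 6 or WT replicates 1, 3, 4, 5, 7 and 8 (adjusted p = 0.0505 to 0.113, edgeR).

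Markers of neighbouring regions were compared to see what the dissections held. Striatum markers gave 0 called of 12 (1 lower without WT replicate 1) and hippocampus markers 3 higher and 0 lower of 9 (33.3% called). Thalamus markers gave 2 higher and 1 lower of 8 (37.5%) and cerebellum markers 0 higher and 2 lower of 10 (20%). Each share was below the 43.2% of all tested genes. The higher hippocampus markers were Pou3f1 (0.71), which is also made in cortical neurons, Zbtb20 (0.32) and Dsp (2.04). One lower cerebellum marker was Calb1 (-0.67), which is also on the upper layer list. Its medians were 177 CPM in WT and 108 CPM in Cic-L-KO, where the summed cerebellum list had medians of 247 and 185 CPM. The striatal gene Six3 ran from 0.161 to 8.24 CPM in WT and from 0.461 to 7.73 CPM in Cic-L-KO. Six3 thus varied widely between samples of both genotypes. Dsp was not called without Cic-L-KO replicate 5 (adjusted p = 0.109, edgeR). Single libraries moved these small counts: without any of Cic-L-KO replicates 1 and 5 or WT replicates 3 and 4 there was 1 lower hippocampus marker, without Cic-L-KO replicates 6 or 8 or WT replicate 8 there were 2. Without WT replicate 4 there were 2 lower thalamus markers. Without Cic-L-KO replicate 8 or WT replicates 1 or 6 there was 1 higher cerebellum marker, and without either of the last also 1 lower.

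Immediate early genes, which neurons switch on within minutes of activity, gave 0 higher and 7 lower of 20 (35% called, against 43.2% of all tested genes; median -0.40). Egr1 stood between 239 and 710.2 CPM in WT (median 493.1) and between 199.7 and 307 CPM in Cic-L-KO (median 248) (log2 fold change -0.89, SE 0.19, adjusted p = 0.000667, edgeR). Arc stood between 35.7 and 589 CPM in WT (median 373) and between 108 and 269 CPM in Cic-L-KO (median 174) (log2 fold change -0.83, SE 0.36, adjusted p = 0.0703, edgeR). WT replicate 4 was the lowest of all 8 WT samples at both genes, and the groups overlapped at both. Arc was called without any 1 of WT replicates 1 and 4 (adjusted p = 0.00424 to 0.0478, edgeR). Without WT replicate 4, 12 of the 20 genes were lower, and without any of Cic-L-KO replicate 1 or WT replicates 3, 5 and 6, 1 was higher. Samples without Y-linked RNA alone gave 11 lower genes, samples with Y-linked RNA alone 0 lower and 1 higher, and the 7-library setting 1 lower. A difference in effect between samples with and without Y-linked RNA was not tested.

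Genes that respond to glucocorticoids gave 1 higher and 9 lower of 16 (62.5% called, against 43.2% of all tested genes). The lower ones included Sgk1 (-0.80), Per1 (-0.64) and Fkbp5 (-0.44). The higher gene, Mt1, was lost without any of Cic-L-KO replicates 2, 5 and 8 or WT replicates 3, 7 and 8 (adjusted p = 0.0527 to 0.0721, edgeR). The 9 lower genes dropped to 2 in samples with Y-linked RNA and to 1 in the 7-library setting. Over all tested genes the 3714 lower calls dropped to 2437 and 1716 in these settings. Circadian clock genes gave 1 higher and 10 lower of 19 (57.9% called, median -0.19). Of all tested genes 21.4% were higher and 21.9% lower. Strongly expressed genes leaned lower in general, with 604 higher and 1163 lower among 2908 genes with a mean log2 CPM between 6 and 8. A lean particular to the clock or the glucocorticoid list was not tested. Tef (-0.42), Nr1d2 (-0.37) and Ciart (-1.08) fell and Cry1 rose (0.49). In the 7-library setting 4 clock genes were lower. Time of day at dissection is not in the labels.

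Signalling and metabolic lists held genes of both directions, many near the 43.2% called, 21.4% higher and 21.9% lower, of all tested genes. Of 39 genes of the RAS to ERK cascade, 13 were higher and 10 lower (59% called). Genes with a mean log2 CPM between 6 and 8 were called at 60.8% in general. In the cascade Rps6ka2 (0.66), Ksr1 (0.64) and the receptor gene Fgfr1 (0.59) rose and Elk1 (-0.36) fell. Of 12 genes of the IGF and insulin axis, 4 were higher and 2 lower (50% called): Igfbp6 stood between 35.8 and 49.8 CPM in WT (median 42.3) and between 15.9 and 22.2 CPM in Cic-L-KO (median 19.6) (log2 fold change -1.15, SE 0.079, adjusted p = 3.79e-12, edgeR), Igfbp4 fell (-0.66) and Igf1r, the IGF receptor, rose (0.51). Without the 7 libraries, the cascade gave 7 higher and 4 lower, and the IGF axis 1 higher. Of 8 FMRP family genes, 3 were lower and 0 higher (37.5% called), Fmr1 (-0.29), Cyfip2 (-0.32) and Caprin1 (-0.13). Without any of Cic-L-KO replicates 3, 4, 6 and 7 or WT replicates 4, 5, 7 and 8, 1 gene of the family was higher.

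Cholesterol synthesis and uptake genes gave 7 higher and 4 lower of 24 (45.8% called, against 43.2% of all tested genes), with Dhcr7 (0.37) and Pmvk (0.36) higher and Acat2 (-0.49) and Hmgcs1 (-0.27) lower. MHC and interferon genes gave 4 higher and 1 lower of 21 (23.8% called), with rises of Ifi27 (0.52) and H2-K1 (0.44), a class I gene whose reads may be shared with its paralogs. Reactive astrocyte and stress genes gave 2 higher and 3 lower of 14 (35.7% called). Apart from Serpina3n, the called members were Stat3 (0.12) and, lower, Cd44 (-1.0), S100a10 (-0.58) and Hmox1 (-0.37). Hmox1 was not called without any 1 of Cic-L-KO replicates 1, 2 and 5 or WT replicates 6 and 7 (adjusted p = 0.0505 to 0.103, edgeR). Nuclear genes of the respiratory chain gave 10 higher and 7 lower of 69 (24.6% called). The lower count was 4 without Cic-L-KO replicate 5 and 3 without WT replicate 1, and with only genes of at least 50 counts on average 21 were higher. In the 7-library setting 0 were lower.

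The same genotype contrast in cerebellum was set against that in cortex. The Cic-L-KO effect differed between the tissues at 4145 of 18032 genes tested for it (23%; edgeR, adjusted p under 0.05). Of the 7338 genes called in cortex, 6993 were tested in cerebellum, 3247 differed between the tissues, 1622 were called in the same direction in cerebellum and 356 in the opposite direction. The cortex samples that gave these calls also enter the test between tissues. That choice raises the count of 3247, so it cannot be set against the 23% of all genes. Slc29a4 had a log2 fold change of 0.12 in cerebellum (difference between tissues 2.95, adjusted p = 5.80e-16, edgeR), Rspo1 of 0.27 (difference -3.09, adjusted p = 2.85e-07) and Grm2 of 0.083 (difference -1.65, adjusted p = 1.48e-13). None of these 3 was called in cerebellum. Maff rose in cerebellum too, by 2.51, and the difference between tissues was -0.41 (SE 0.26, adjusted p = 0.263, edgeR). Cic itself rose by 0.15 in cerebellum (difference 0.73, adjusted p = 7.95e-13, edgeR).

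Genes of opposite direction in the tissues were led by Npy. In cerebellum it stood at 8.41 ± 1.42 CPM in WT and 2.9 ± 0.78 CPM in Cic-L-KO, a log2 fold change of -1.54, against 0.81 in cortex (difference 2.35, adjusted p = 5.80e-16, edgeR). Rreb1, a RAS-responsive zinc finger factor, stood between 23.4 and 39.5 CPM in WT (median 28.9) and between 75.7 and 101 CPM in Cic-L-KO (median 91.2). In cerebellum it stood at 80.9 ± 11 CPM in WT and 58.8 ± 4.6 CPM in Cic-L-KO (difference 2.05, adjusted p = 2.61e-13, edgeR). Arhgap32, a GTPase regulator of dendritic spines, stood between 594 and 690.3 CPM in WT (median 624) and between 361 and 449 CPM in Cic-L-KO (median 401) and rose by 0.24 in cerebellum (difference -0.90, adjusted p = 1.55e-15, edgeR). Sema5a (0.67 in cortex, -0.27 in cerebellum), the co-chaperone gene Sgtb (-0.30 and 0.41) and the glycolytic gene Pfkl (-0.39 and 0.17) completed the 6 with the smallest p. The tissues also differ in their cell types, and the part of that in these differences was not tested.

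**Figure D5:**
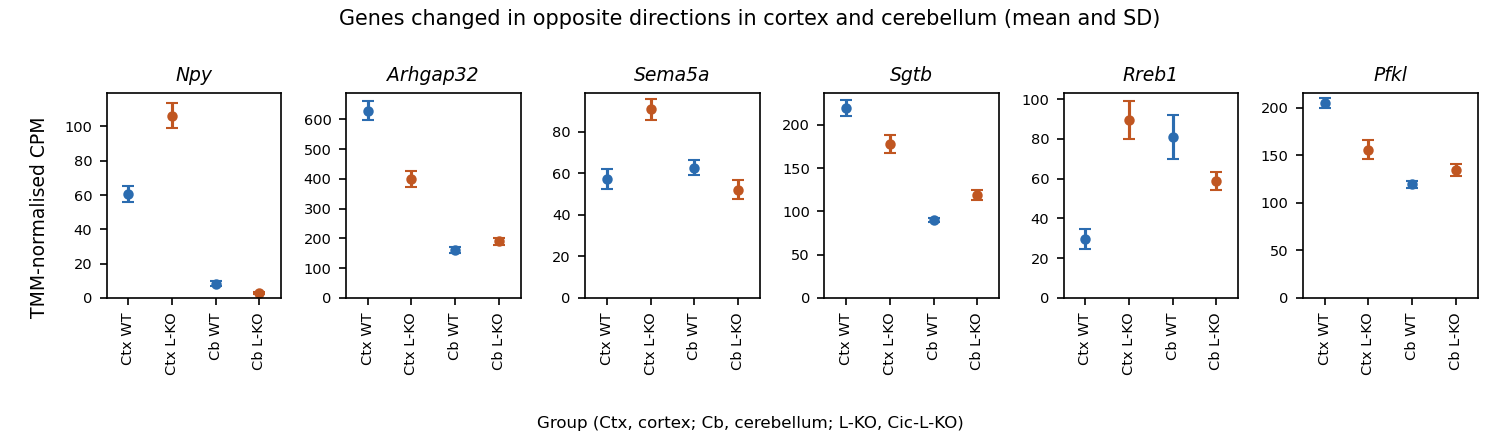
TMM-normalised CPM (linear axes from zero) of 6 genes in cortex (Ctx) and cerebellum (Cb), WT in blue and Cic-L-KO (L-KO) in orange, as the mean with SD of 8 samples. In each panel the Cic-L-KO mean lies on opposite sides of WT in the 2 tissues; Npy stands at 60.6 ± 4.53 CPM in WT and 106 ± 7.31 CPM in Cic-L-KO cortex.

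Cic-S-KO cortex, from mice without the short isoform, was compared with Cic-L-KO cortex directly. The knockouts differed at 5757 of 16974 genes (33.9%; edgeR, adjusted p under 0.05). Of the 7338 genes called in Cic-L-KO against WT, 4489 differed between the knockouts. These genes were picked with the same 8 Cic-L-KO samples that enter this test. That choice raises the count, so it cannot be set against the 33.9% of all genes. Both knockouts are set against the same 8 WT samples, so their changes from WT are given side by side only. Slc29a4 stood at 8.13 ± 2.99 CPM (n = 7) in Cic-S-KO, -0.12 from WT on the log2 scale, and Rspo1 at 11.3 ± 1.86 CPM, with -0.12. Between the knockouts Slc29a4 differed by -3.19 (adjusted p = 1.08e-11, edgeR) and Rspo1 by 2.69 (adjusted p = 8.04e-14, edgeR). Abca8a rose in both, with 0.91 without the short isoform and 1.72 without the long isoform. Gm765 fell in both, with log2 fold changes of -1.47 without the short isoform and -1.48 without the long isoform and a difference of 0.014 between the knockouts (adjusted p = 0.974, edgeR).

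Cic was higher than WT in both knockouts, with log2 fold changes of 0.63 (Cic-S-KO) and 0.88 (Cic-L-KO) (difference -0.25, adjusted p = 5.06e-06, edgeR). At 112 of 16974 tested genes the knockouts were called in opposite directions from WT and differed from each other. The same knockout samples enter the calls and the test between the knockouts, so that test is no further support. Pacsin2 stood at 64.5 ± 2.19 CPM in Cic-S-KO (-0.19 from WT), and Atxn1 at 81.5 ± 3.93 CPM (-0.23). Serpina3n (-0.42), Crhbp (-0.24), Dpy19l3, a C-mannosyltransferase family gene (-0.26, against 0.74 in Cic-L-KO), and 5930438M14Rik (-0.65) likewise stood lower than WT in Cic-S-KO and higher in Cic-L-KO.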

How the data were processed

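RNA was extracted from flash-frozen tissue and libraries were made with polyA selection, per the labels' protocols. The deposited table gives counts per gene, made by the authors. Their processing notes name STAR 2.7 and the build GRCm38.p6, while the counting program, its annotation and its use of strand are not given in the sources used here. All cortex columns matched a sample, 0 columns were left unmapped, and 50725 of 50789 genes matched GENCODE M21. Genes of chromosome 1 and parts of chromosomes 17, 18 and 19 were not analysed here, and a few members of the lists are not reported here.

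Counts were fitted with edgeR 4.0.16 in R 4.3.3 (quasi-likelihood, robust, TMM, filterByExpr) over all 23 cortex samples, with Benjamini-Hochberg adjustment and a threshold of 0.05. The interaction with cerebellum used all 46 brain samples in 1 fit. The labels do not say which cortex and cerebellum samples share a mouse, and this fit treated all samples as separate. DESeq2 1.42.0, other normalizations and filters, GC and length offsets, a replicate block and single-library omissions were alternatives. No 2 samples of a group agreed within sampling noise. On simulated counts for Cic-L-KO against WT over 16974 genes, 73 of 100 genes changed by 0.5 (log2) and 96 of 100 changed by 1 were recovered, and 7.14% of the calls were false.

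The members and lists were chosen with earlier results of these data known, and no list count is independent evidence of its direction. The text names Cic, Atxn1 and Atxn1l, the 15 largest changes in each direction among protein-coding genes whose mean log2 CPM was 1 or more, the 10 smallest p, up to 8 members of each list by p with its defining markers, 6 genes of opposite direction in cerebellum and 6 in Cic-S-KO, and the genes within 200 kb of Cic. Arc, Gas7 and Nisch were named after their values were seen. Of 220 genes recomputed under each alternative, 50 overlap another tested gene, 46 of them on the opposite strand, and their counts are less certain. Dispersion and p-values rest on 8 samples a group, or 7 in Cic-S-KO.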

Additional observations from a re-analysis of the deposited data

Results flagged for a closer look

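Samples that stood apart from the other 7 of their group were sought at 49 genes and 5 library measures, 108 groups of values in all, where chance gives 5.4. In 4 groups the gap to the nearest sample exceeded 0.526 of the range. Pafah1b3 was 9.69 CPM in WT replicate 4. Etv4 was 18.7 CPM in Cic-L-KO replicate 4, the lowest of its group and still above WT. Sfrp5 was 1.82 CPM in WT replicate 2. Grm2 was 32.3 CPM in Cic-L-KO replicate 5, the highest of its group and still below WT.

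Of 6993 cortex calls tested in cerebellum, 356 were called there in the opposite direction. All 356 also passed the interaction test (edgeR). That test uses the same samples as the calls, so it is no further support. For the 6 with the smallest p the effect in cortex minus that in cerebellum was 2.35 for Npy, -0.90 for Arhgap32, 0.93 for Sema5a, -0.71 for Sgtb, 2.05 for Rreb1 and -0.56 for Pfkl on the log2 scale.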

How the results depend on the processing

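The count of 7338 genes that differed between Cic-L-KO and WT ran from 6759 to 7264 when 1 library was left out and from 6519 to 7594 under the other normalization, filter, offset, covariate and DESeq2 settings that kept all samples, apart from the choroid plexus covariate (6323). It was 5095 in samples with Y-linked RNA, 4396 in those without, and 3405 without the 7 libraries high in choroid plexus RNA. The last 3 settings and the covariate were added after the data were seen, they hold fewer samples or 1 more term, and the cause of the lower counts was not tested further. Requiring a change of 0.5 or more on the log2 scale, in either direction, left 1931 genes, 69.39% of them higher against 49.39% of all calls, with 1617 between the knockouts and 1461 between the tissues. The median over all tested genes was 0.011 and moved by under 0.1 in each scaling. Of 220 genes recomputed, no called gene reversed in any setting run. Calls were lost at 96 of them under the 0.5 limit, 32 without the 7 libraries, 25 with and 23 without Y-linked RNA, and 8 or fewer under each other setting that kept all samples. Replicate numbers did not pair WT with Cic-L-KO cortex samples (correlations of same-numbered deviations from -0.15 to 0.13), and 1 of 8 WT samples correlated best with its own number. Pairing of cortex with cerebellum samples was not checked in this way. With a replicate block the counts were 6900, 5143 between the knockouts and 4327 between the tissues. The number of samples and the low counts of scarce genes limit small changes.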
